A study of Mus musculus with 9 samples.

Results

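Of the 8 genes described here, 7 serve the making, vesicular storage, recapture and sensing of dopamine (Th, Ddc, Gch1, Slc18a2, Slc10a4, Slc6a3 and Drd2), and Dlk1 is a further gene of dopamine neurons. They were looked up by gene name, and all 8 were found among the 27339 genes of the table and among the 14949 genes tested. The tissue was mouse substantia nigra pars compacta, where the dopamine neurons that die in Parkinson's disease lie. Of 9 libraries, 3 were from control mice (Ctrl), 3 from mice given MPTP, and 3 from mice given MPTP and fed a medium-chain triglyceride ketogenic diet (MPTP plus diet). MPTP is converted by glia to MPP+, a poison of mitochondrial respiration that is taken up by the dopamine transporter. The series asks whether the diet protects the nigra of MPTP-treated mice. Strain, genotype, age, sex, the MPTP dose and schedule, and the length of the diet are not given in the labels. Nothing in the labels says whether libraries came from separate animals, so the p-values measure only the spread between these libraries, which may be technical.

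Dopamine is made from tyrosine by tyrosine hydroxylase and then by aromatic L-amino acid decarboxylase. Tyrosine hydroxylase works only with the cofactor tetrahydrobiopterin. The vesicular monoamine transporter loads dopamine into vesicles, the plasma membrane transporter takes released dopamine back, and the D2 autoreceptor restrains firing and release. In the nigra these genes together mark the dopamine neurons of the pars compacta, and their products are the classic readout of MPTP damage.

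The libraries held 33.2 M to 40.001 M counts (M, the SI prefix mega), of which 6.14% to 7.06% were mitochondrial. No pair of libraries within a group agreed within sampling noise. The defining dopamine neuron genes were present in all 9 libraries, Th at no less than 48.1 CPM and Slc6a3 at no less than 86.2 CPM, whereas markers of noradrenaline neurons summed to only 0.113 to 1.09 CPM, with Dbh at 0 CPM in 7 of the 9. CPM are counts per mega-count of the library, scaled by TMM. Library Ctrl 3 stood apart in its choroid plexus markers, which summed to 1196 CPM, against 15.6 to 91.0 CPM in the other libraries. It also stood apart in its pineal markers, at 75.5 CPM, against 0.995 to 4.28 CPM. Hypothalamic markers differed widely within every group. In order of replicate number they summed to 340, 54.8 and 155 CPM in Ctrl and 318, 54.1 and 209 CPM in MPTP. In MPTP plus diet they summed to 218, 161 and 41.1 CPM. Their part in the levels of the dopamine genes was not tested.

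On a scale that allows for gene length (FPKM, fragments per kilobase and mega-fragment), Ddc had the highest level in Ctrl, 55.5 ± 7.03 FPKM (SD, n = 3). Th followed at 45.1 ± 10.03, Slc6a3 at 43.0 ± 6.84 and Dlk1 at 39.8 ± 6.91 FPKM, and each of these overlapped its neighbour in the order. Slc18a2 lay lower, at 28.2 ± 2.57 FPKM, without overlap with the gene above or below it. Slc10a4 at 12.7 ± 1.25 and Drd2 at 12.6 ± 0.681 FPKM overlapped each other, and Gch1 was lowest, at 4.59 ± 1.98 FPKM. Ddc was above 90.8% of the genes tested by mean FPKM over the 9 libraries, while Gch1 was above 31.8%. In both MPTP groups Ddc was again highest and Gch1 again lowest by mean FPKM.

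The region around the annotated start is shown for 4 of the genes: Ddc and Slc18a2, the closest pair in level across libraries as described further on, and Th and Slc6a3, which had their highest and lowest values in other libraries than that pair. The sequences are from RefSeq on GRCm38.p6, 5′ to 3′ on the strand of the gene, with 250 bases before the start and 20 after it. Capitals mark matches to any of the motifs searched on both strands of the 300-base windows that reach 50 bases past the start.
Th, chr7:142899976-142900245, minus strand: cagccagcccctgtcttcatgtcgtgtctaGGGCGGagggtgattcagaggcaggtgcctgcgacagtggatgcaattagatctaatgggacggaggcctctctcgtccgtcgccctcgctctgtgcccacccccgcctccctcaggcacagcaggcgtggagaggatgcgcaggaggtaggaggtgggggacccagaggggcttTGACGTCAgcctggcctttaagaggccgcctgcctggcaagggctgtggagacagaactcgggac
Slc6a3, chr13:73536497-73536766, plus strand: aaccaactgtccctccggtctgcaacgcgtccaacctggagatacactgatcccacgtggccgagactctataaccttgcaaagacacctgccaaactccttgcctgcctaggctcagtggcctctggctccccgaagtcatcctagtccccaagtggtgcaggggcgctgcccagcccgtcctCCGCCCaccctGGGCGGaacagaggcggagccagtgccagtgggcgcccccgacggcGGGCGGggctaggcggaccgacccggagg
Ddc, first of 2 promoters, chr11:11898125-11898394, minus strand: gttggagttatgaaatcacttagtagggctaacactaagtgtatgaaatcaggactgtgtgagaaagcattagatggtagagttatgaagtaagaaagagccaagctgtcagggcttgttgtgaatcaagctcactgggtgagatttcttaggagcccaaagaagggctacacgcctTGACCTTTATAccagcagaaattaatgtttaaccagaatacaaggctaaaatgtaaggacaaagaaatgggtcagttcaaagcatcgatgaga
Slc18a2, chr19:59260628-59260897, plus strand: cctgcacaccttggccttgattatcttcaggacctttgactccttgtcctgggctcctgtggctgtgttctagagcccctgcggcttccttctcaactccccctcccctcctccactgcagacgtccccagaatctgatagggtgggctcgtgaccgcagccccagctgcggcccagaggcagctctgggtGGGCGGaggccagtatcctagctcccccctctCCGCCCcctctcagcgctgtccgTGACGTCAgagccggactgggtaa
All 8 genes matched the RefSeq table, with 9 promoters, since Ddc has 2. The palindromic cAMP response element, TGACGTCA, was present in 2 of the 9, starting 45 bases before the Th start and 4 bases before the Slc18a2 start, against 1.79% of all 32851 promoters. The NBRE (AAAGGTCA, the letters of the Nr4a family's monomer site) was present in the Ddc promoter shown and in 1.51% of all promoters. That match overlapped a match to the TATA box (TATAAA), both on the opposite strand. The GC box, GGGCGG, was present in 6 of 9 promoters and in 35.7% of all. In Slc6a3 it occurred 3 times and was the only motif found. TATAAA also matched in Gch1 (13.6% of all promoters), and TGTTTAC, the forkhead core, matched at 2 places in Dlk1 (3.65% of all). TAATCC and TAATTA, homeodomain letters held by 7.06% and 5.29% of all promoters, matched none of the 9, and the second Ddc promoter held no motif searched. These matches describe letters only, not bound sites.

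In MPTP against Ctrl, all 8 genes had lower fitted levels, with a median log2 fold change of -0.38 (-23.3%), against -0.00092 over all genes tested, of which 50.4% lay below 0. No gene passed the test: edgeR's quasi-likelihood test called 0 of 8 at an adjusted p under 0.05, where 0.0134% of all genes were called. At an unadjusted p under 0.05, Ddc and Slc10a4 were lower, 2 of 8, where 2.69% of all genes were. That count was 0 without Ctrl 1, 0 without MPTP 1 and 1 without MPTP 3, against 5 with DESeq2 and 4 without robust moderation, and it lay between 0 and 5 over all alternatives. DESeq2 and limma on log2 FPKM also called 0 of 8 after adjustment. In Th, Slc10a4 and Slc6a3 the 3 MPTP libraries lay below all 3 Ctrl libraries, 3 of 8 genes, where 5.41% of all genes did and 5.14% lay wholly higher. In bulk tissue, fewer dopamine neurons, less RNA in each and a different tissue composition of the libraries cannot be told apart. With 3 libraries against 3, an exact two-sided permutation test cannot go below p = 0.1.

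Markers of some other cells had higher fitted levels in the same comparison and those of others lower, though none passed the test. All 6 oligodendrocyte markers were above Ctrl in MPTP (median log2 difference 0.18). Their summed level was 9849 to 12032 CPM in Ctrl and 10431 to 12803 CPM in MPTP, with none at 0. All 5 microglial markers had fitted levels above Ctrl, with a median of 0.15 and sums of 146 to 171 CPM in Ctrl and 168 to 182 CPM in MPTP. For 1 of them, Tmem119, the difference was only 0.00044, with means of 16.566 CPM in Ctrl and 16.555 CPM in MPTP. Of 5 astrocyte markers 4 were above, with a median of 0.05, and of 6 thalamic markers 5 were above, with a median of 0.35. The 5 GABA neuron markers had a median of -0.02, and of 6 hypothalamic markers 4 were above, with a median of 0.09. All 8 meningeal markers were below Ctrl, with a median of -0.53. All 5 choroid plexus markers were below, with a median of -2.43, their sum being high in Ctrl 3. All 4 cholinergic markers (median -0.04) and 4 of 5 serotonin neuron markers (median -0.11) were also below. Those of smallest p among the oligodendrocyte and microglial markers were Cnp, a myelin enzyme, at 0.20 (unadjusted p = 0.0129, adjusted p = 0.893 by edgeR), and P2ry12, a microglial receptor, at 0.30 (unadjusted p = 0.00906, adjusted p = 0.893 by edgeR). The part of these cells in the levels of the 8 genes was not tested.

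**Figure D1:**
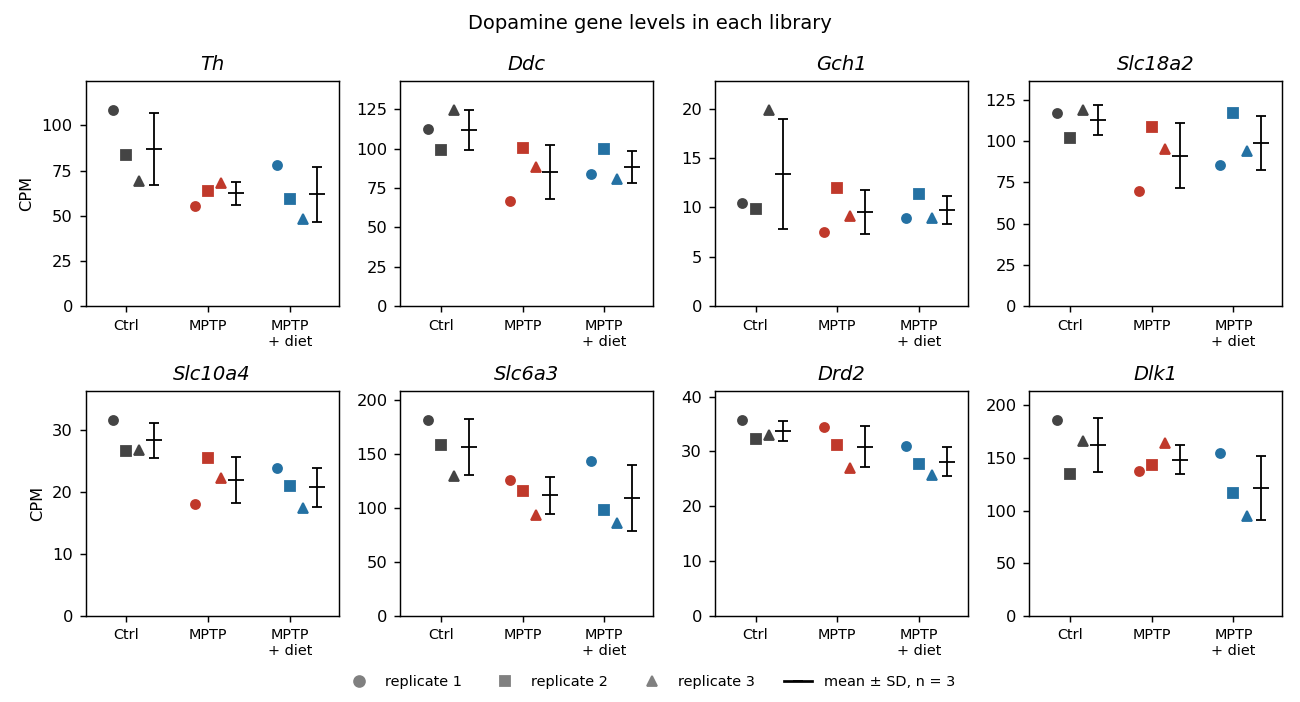
Levels of the 8 genes in CPM (vertical axis, starting at 0 and scaled for each gene) in the 3 groups; each point is 1 library, the marker shape gives its replicate number, and the bar is the mean ± SD (n = 3). The MPTP points lie wholly below the Ctrl points for Th, Slc10a4 and Slc6a3, and MPTP plus diet points overlap MPTP points in all 8 panels.

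Among the synthesis genes, Th (ENSMUSG00000000214, chromosome 7, 142892752 to 142931128, minus strand), which encodes the rate-limiting tyrosine hydroxylase, was at 108, 83.7 and 69.0 CPM in Ctrl 1 to 3. The 3 MPTP libraries were at 55.3, 63.8 and 68.0 CPM, and the MPTP plus diet libraries at 78.2, 59.3 and 48.1 CPM. All MPTP libraries were lower than every Ctrl library, but the highest MPTP value lay close under the lowest Ctrl value, and MPTP plus diet library 1 was inside the Ctrl range. In MPTP against Ctrl, Th had a log2 fold change of -0.48 ± 0.225 (SE, n = 3 per group, adjusted p = 0.913 by edgeR). It was -0.29 without Ctrl 1.

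Ddc (ENSMUSG00000020182, chromosome 11, 11814101 to 11898144, minus strand) encodes the decarboxylase that turns L-DOPA into dopamine, and serotonin neurons use the same enzyme. Its levels were 113, 99.1 and 124 CPM in Ctrl, 67.0, 101 and 88.4 CPM in MPTP, and 84.1, 100.01 and 80.6 CPM in MPTP plus diet. MPTP 1 was the lowest of all 9 libraries, while MPTP 2 and MPTP plus diet 2 lay just above the lowest Ctrl library, so both MPTP groups overlapped Ctrl. Ddc had a log2 fold change of -0.39 ± 0.159 in MPTP against Ctrl (SE, n = 3 per group, unadjusted p = 0.0394, adjusted p = 0.904 by edgeR), and -0.24 without MPTP 1. An antisense gene, 1700042O10Rik, overlaps Ddc but shares 0 exon bases with it.

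Gch1 (ENSMUSG00000037580, chromosome 14, 47153895 to 47189413, minus strand) encodes GTP cyclohydrolase, the first enzyme of tetrahydrobiopterin synthesis. It was at 10.5, 9.88 and 19.8 CPM in Ctrl, 7.53, 11.9 and 9.14 CPM in MPTP, and 8.91, 11.3 and 8.89 CPM in MPTP plus diet. Ctrl 3 alone was high, and the values of the other Ctrl libraries lay among those of the MPTP groups. The log2 fold change in MPTP against Ctrl, -0.49 ± 0.279 (SE, n = 3 per group, adjusted p = 0.922 by edgeR), became -0.09 without Ctrl 3. In Ctrl 3 the serotonin-synthesis gene Tph1, which is typical of the pineal gland, was at 48.8 CPM, against 0 to 2.54 CPM elsewhere. Of the 6 pineal markers, Gngt1 was at 0 in all 9 libraries and Aanat ranged from 0.299 to 1.13 CPM, with its highest value in MPTP 1 and not in Ctrl 3. The pineal score holds only the 3 of 6 markers that were tested, without Gngt1 and Aanat. It was 5.11 in Ctrl 3 and at most 1.08 elsewhere, so it mainly sets that library apart. With this score in the fit, the Gch1 fold change was -0.17 in MPTP against Ctrl.

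Among the storage genes, Slc18a2 (ENSMUSG00000025094, chromosome 19, 59260896 to 59296012, plus strand) encodes the vesicular monoamine transporter VMAT2. It was at 117, 102 and 119 CPM in Ctrl, 70.1, 109 and 95.3 CPM in MPTP, and 85.5, 117 and 94.3 CPM in MPTP plus diet. MPTP 1 was the lowest library, and library 2 of each MPTP group lay within the Ctrl range. Its log2 fold change in MPTP against Ctrl was -0.30 ± 0.179 (SE, n = 3 per group, adjusted p = 0.922 by edgeR), and -0.14 without MPTP 1. Slc18a2 shares 111 exon bases with the antisense gene Gm29261, and without a stated strand setting reads there cannot be told apart.

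Slc10a4 (ENSMUSG00000029219, chromosome 5, 73006883 to 73012955, plus strand) encodes an orphan transporter of synaptic vesicles in monoamine and cholinergic neurons. It was at 31.6, 26.6 and 26.6 CPM in Ctrl, 18.0, 25.4 and 22.2 CPM in MPTP, and 23.8, 20.9 and 17.4 CPM in MPTP plus diet. It was the only 1 of the 8 genes in which all 6 libraries of MPTP-treated mice lay below all 3 Ctrl libraries, which 1.21% of all genes tested did. Slc10a4 had a log2 fold change of -0.37 ± 0.138 in MPTP against Ctrl (SE, n = 3 per group, unadjusted p = 0.0200, adjusted p = 0.893 by edgeR). The 4 cholinergic markers summed to 24.0 to 38.9 CPM in Ctrl, 21.0 to 38.2 in MPTP and 21.1 to 31.8 in MPTP plus diet, with no marker at 0, and their part in the Slc10a4 values was not tested.

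The reuptake gene Slc6a3 (ENSMUSG00000021609, chromosome 13, 73536747 to 73578672, plus strand) encodes the dopamine transporter, which also carries MPP+ into the cell. It was at 182, 158 and 129 CPM in Ctrl, 126, 116 and 93.1 CPM in MPTP, and 144, 97.8 and 86.2 CPM in MPTP plus diet. The highest MPTP library lay just below the lowest Ctrl library, whereas MPTP plus diet 1 lay above it. Slc6a3 had a log2 fold change of -0.49 ± 0.232 in MPTP against Ctrl (SE, n = 3 per group, adjusted p = 0.913 by edgeR). With the meningeal marker score in the fit it was -0.77. The 8 meningeal markers summed to 163 to 204 CPM in Ctrl, 77.1 to 153 in MPTP and 97.4 to 255 in MPTP plus diet, with none at 0.

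Drd2 (ENSMUSG00000032259, chromosome 9, 49340627 to 49408177, plus strand) encodes the D2 receptor, on dopamine neurons the autoreceptor. It varied least, at 35.7, 32.4 and 32.98 CPM in Ctrl, 34.4, 31.2 and 27.0 CPM in MPTP, and 31.0, 27.8 and 25.7 CPM in MPTP plus diet. MPTP libraries 1 and 2 were near the Ctrl values, and all 3 MPTP plus diet libraries were below every Ctrl library. The log2 fold change was -0.13 ± 0.0976 in MPTP against Ctrl (SE, n = 3 per group, adjusted p = 0.935 by edgeR), and -0.04 without MPTP 3.

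Dlk1 (ENSMUSG00000040856, chromosome 12, 109452823 to 109463336, plus strand) encodes a membrane protein related to Notch ligands that dopamine neurons of the nigra express. It was at 186, 135 and 167 CPM in Ctrl, 138, 143 and 164 CPM in MPTP, and 154, 117 and 94.4 CPM in MPTP plus diet. All MPTP libraries lay inside the Ctrl range, and MPTP plus diet 2 and 3 lay below it. The log2 fold change in MPTP against Ctrl was -0.13 ± 0.199 (SE, n = 3 per group, adjusted p = 0.971 by edgeR), and -0.02 without Ctrl 1. The ratio of counts to FPKM implies a Dlk1 length that varied 1.16-fold between libraries, against 1.02-fold for the other 7 genes, and its fold changes differed between the scales. On log2(FPKM + 0.1), limma gave -0.02 in MPTP against Ctrl and -0.38 in MPTP plus diet against MPTP, where the counts gave -0.13 and -0.28.

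The diet's effect in treated mice was asked by comparing MPTP plus diet with MPTP, where 3 genes had higher and 5 lower fitted levels. The median log2 fold change was -0.02, and edgeR called 0 of 8 at an adjusted p under 0.05, where 0.0% of all genes were called. At an unadjusted p under 0.05 it was also 0 of 8, against 562 higher and 601 lower (4.02%) among all genes. DESeq2 and limma called 0 of 8 as well. The groups overlapped in all 8 genes, while 7.1% of all genes lay wholly lower and 6.64% wholly higher. The intervals are wide, so similar levels are not shown. The 95% interval ran from -31.8% to 44.2% for Th, from -33.6% to 43.6% for Slc6a3 and from -19.0% to 44.9% for Slc18a2. It was narrowest for Drd2, from -21.2% to 5.64%. Dlk1 had the largest fitted difference of the 8, a log2 fold change of -0.28 ± 0.200 (SE, n = 3 per group, adjusted p = 0.764 by edgeR). The sign of the difference changed in at least 1 alternative for every gene except Drd2 and Dlk1.

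**Figure D2:**
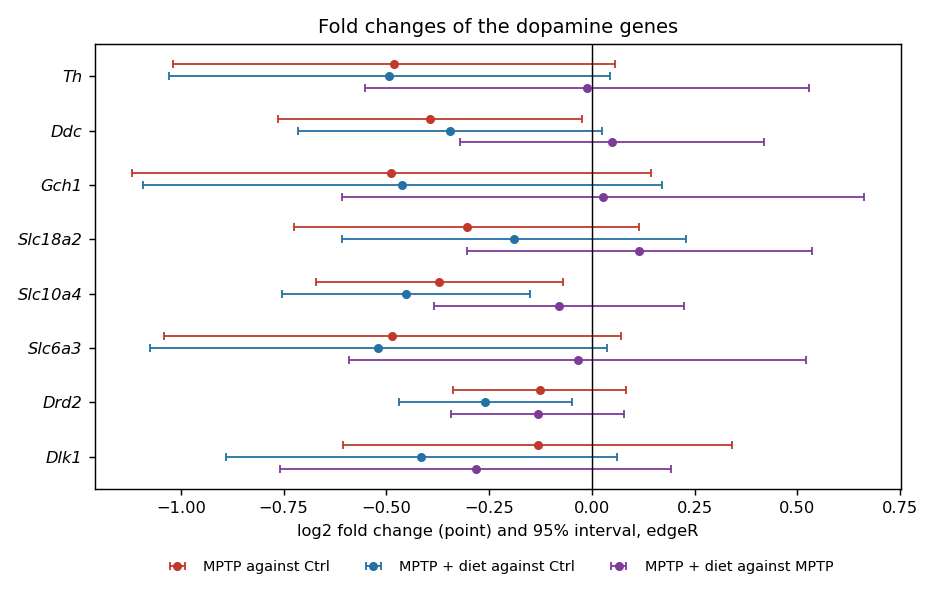
Log2 fold change of each gene (horizontal axis) with its 95% interval from edgeR, for the 3 comparisons in colour. All points of both comparisons with Ctrl lie below 0, whereas those of MPTP plus diet against MPTP lie on both sides of 0, and every interval of that comparison spans 0.

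Set against Ctrl, all 8 genes of MPTP plus diet again had lower fitted levels, with a median log2 fold change of -0.43 (-25.9%). This comparison shares its Ctrl libraries with MPTP against Ctrl, so the 2 are not independent. edgeR called 0 of 8, where 0.0% of all genes were called, and DESeq2 and limma also called 0 of 8. At an unadjusted p under 0.05, Slc10a4 and Drd2 were lower, 2 of 8, where 3.36% of all genes were, and in the same genes the groups did not overlap, where 6.4% of all genes lay wholly lower and 6.28% wholly higher. The count at an unadjusted p under 0.05 was 1 without Ctrl 1 and 1 without MPTP plus diet 3, 5 without Ctrl 2 and 5 without MPTP plus diet 1, and 6 with DESeq2 or without robust moderation. The log2 fold change was -0.45 ± 0.138 for Slc10a4 (SE, n = 3 per group, unadjusted p = 0.00690, adjusted p = 0.740 by edgeR). It was -0.26 ± 0.0978 for Drd2 (SE, n = 3 per group, unadjusted p = 0.0197, adjusted p = 0.740 by edgeR). Slc6a3 was at -0.52, Th at -0.49, Gch1 at -0.46, Dlk1 at -0.41, Ddc at -0.35 and Slc18a2 at -0.19, with adjusted p from 0.753 to 0.889 by edgeR. Without Ctrl 1 Th was at -0.30, without Ctrl 3 Gch1 was at -0.07, without MPTP plus diet 1 Slc18a2 was at -0.09, and without MPTP plus diet 3 Dlk1 was at -0.26.

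Oligodendrocyte and microglial markers lay higher in MPTP plus diet than in Ctrl, while astrocyte markers were divided, again with none past the adjusted threshold. The summed level of the 6 oligodendrocyte markers was 12583 to 13846 CPM, wholly above Ctrl, and all 6 genes were above it (median log2 difference 0.25). The 5 microglial markers summed to 175 to 188 CPM, also wholly above Ctrl, with all 5 genes above it. The 5 astrocyte markers summed to 1022 to 1152 CPM, wholly above the 950 to 1004 CPM of Ctrl. Only 3 of these 5 were above Ctrl, with a median of 0.02. Gfap was at 0.66 (unadjusted p = 0.00737, adjusted p = 0.740 by edgeR) and Aqp4 at 0.22, whereas Gja1 was at 0.02 and Slc1a3 at -0.06. Cnp was at 0.25 (unadjusted p = 0.00384, adjusted p = 0.740 by edgeR) and P2ry12 at 0.41 (unadjusted p = 0.00100, adjusted p = 0.740 by edgeR). Their part in the levels of the 8 genes was not tested.

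When the mean of both MPTP groups was set against Ctrl, a contrast added after the data were seen, 5 of 8 genes had an unadjusted p under 0.05 (Th, Ddc, Slc10a4, Slc6a3 and Drd2), where 2.64% of all genes were lower at that level. The smallest p was that of Slc10a4, with a log2 fold change of -0.41 ± 0.118 (SE, n = 6 against 3, unadjusted p = 0.00453, adjusted p = 0.899 by edgeR). After adjustment 0 of 8 were called, and 0.0% of all genes. This contrast was not recomputed under the alternatives.

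The 8 genes did not vary as 1 block. Ctrl 1 was the highest library and MPTP plus diet 3 the lowest for Th, Slc10a4, Slc6a3, Drd2 and Dlk1. Ctrl 3 was the highest and MPTP 1 the lowest for Ddc, Gch1 and Slc18a2. Ddc and Slc18a2 were the closest pair, their centred log2 CPM differing by a root mean square of 0.0885 over the 9 libraries, and their ratio stayed between 0.855 and 1.05. Th was closest to Slc10a4 (0.144) and Slc6a3 to Th (0.186), while Gch1 and Slc6a3 were the farthest apart (0.482). These distances are descriptions over libraries that differed in depth and in markers of other cells, whose part in them was not tested.

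**Figure D3:**
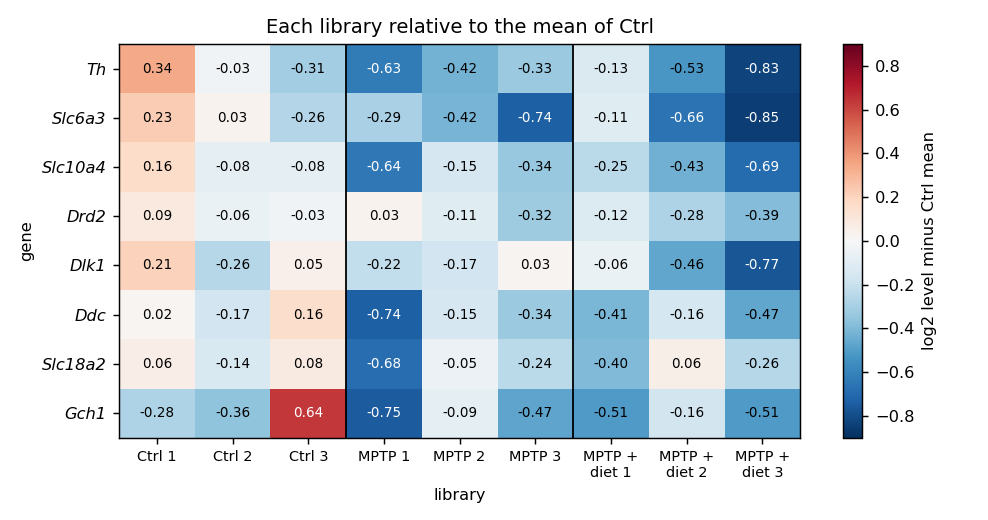
Log2 level of each gene (rows) in each library (columns) minus the mean of Ctrl, printed in each cell and coloured from blue (lower) to red (higher). In MPTP plus diet 3 all 8 genes are below the Ctrl mean and 5 reach their lowest value, and in Ctrl 3 Gch1 stands at 0.64.

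The ratio of Slc18a2 to Slc6a3 CPM differed widely between libraries. It was 0.646, 0.645 and 0.918 in Ctrl, 0.555, 0.936 and 1.02 in MPTP, and 0.595, 1.20 and 1.09 in MPTP plus diet. Within each MPTP group, library 1 was far below the others, and in Ctrl library 3 was above the others. Tph2, the serotonin-synthesis gene of raphe neurons, was at 26.6, 52.2 and 87.0 CPM in Ctrl, 10.6, 82.5 and 55.6 CPM in MPTP, and 14.0, 102 and 75.2 CPM in MPTP plus diet. Serotonin neurons also use Ddc, Gch1 and Slc18a2, but not Slc6a3 or Th. The 5 serotonin neuron markers summed to 70.3 to 178 CPM in Ctrl, 42.6 to 181 in MPTP and 52.6 to 205 in MPTP plus diet, with none at 0. With their score in the fit, MPTP against Ctrl gave log2 fold changes of -0.37 for Ddc, -0.27 for Slc18a2, -0.41 for Gch1 and -0.55 for Slc6a3. Slc6a3 then had an unadjusted p of 0.00429 and an adjusted p of 0.713 by edgeR. The unadjusted p by edgeR was 0.0167 for Ddc, 0.0412 for Slc18a2 and 0.103 for Gch1. At an unadjusted p under 0.05, 4 of 8 genes were lower (Ddc, Slc18a2, Slc10a4 and Slc6a3), against 2 without the score. After adjustment 0 of 8 genes were called. The part of serotonin neurons in the levels of the 8 genes was not tested.

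**Figure D4:**
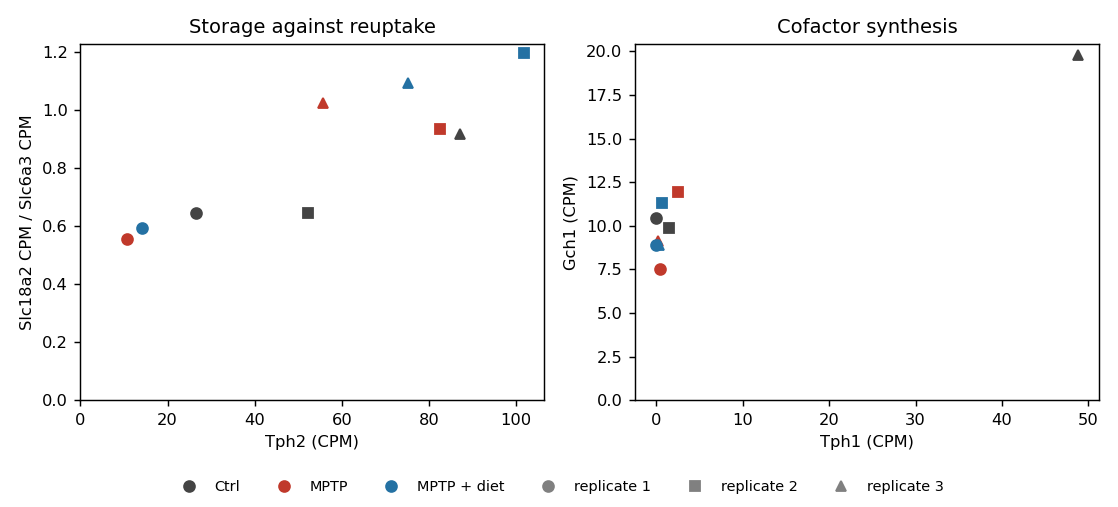
Left, ratio of Slc18a2 to Slc6a3 CPM against Tph2 CPM. Right, Gch1 CPM against Tph1 CPM. Each point is 1 library, coloured by group with the shape giving the replicate number. The lowest Tph2 values, 10.6 and 14.0 CPM, go with the lowest ratios, 0.555 and 0.595, and the highest, 102 CPM, with the highest, 1.20. Between these the order is not shared. Ctrl 1 and Ctrl 2 have ratios of 0.646 and 0.645 at 26.6 and 52.2 CPM. MPTP 3 has 1.02 at 55.6 CPM, above MPTP 2 with 0.936 at 82.5 CPM. In the second panel 1 Ctrl library stands alone at the right with 19.8 CPM of Gch1.

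Most of the genes varied widely between libraries of the same group. The SD of log2 CPM within groups was 0.294 for Slc6a3, higher than in 99.1% of the genes within 2-fold of its mean CPM, whose median was 0.0719. For Th it was 0.291, higher than in 98.6% of such genes, and for Dlk1 0.259, higher than in 98.7%. Drd2 was the steadiest, at 0.135, higher than in 73.7%.

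Of 7 genes for making, recycling or controlling tetrahydrobiopterin, 3 were above and 4 below Ctrl in MPTP, with a median log2 fold change of -0.04. Gchfr, whose product inhibits GTP cyclohydrolase, had the smallest p, at -0.86 (unadjusted p = 0.146, adjusted p = 0.922 by edgeR), from a low level of 2.05 ± 1.31 CPM in Ctrl (SD, n = 3). Of 6 genes of dopamine breakdown, 3 were above and 3 below, with a median of 0.01. Monoamine oxidase A (Maoa) was at 60.6 ± 2.72 CPM in Ctrl, 58.9 ± 0.984 in MPTP and 53.9 ± 2.19 in MPTP plus diet (SD, n = 3 each). All 3 MPTP plus diet libraries of Maoa were below all 6 others, with a log2 fold change against Ctrl of -0.17 (unadjusted p = 0.0130, adjusted p = 0.740 by edgeR). Of all genes tested, 6.4% lay wholly lower in MPTP plus diet than in Ctrl, and 7.1% wholly lower than in MPTP.

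Of 9 genes whose products act on tyrosine hydroxylase protein, 5 were above and 4 below in MPTP (median 0.01), and of 8 of 10 receptor and receptor-regulator genes tested, 4 were above and 4 below (median -0.00098). Drd3 and Drd4 were too low to test. In the same comparison all 8 transcription factors that specify or maintain dopamine neurons had fitted levels below Ctrl, with a median of -0.38. In order of replicate number they summed to 83.1, 78.5 and 83.9 CPM in Ctrl and 47.6, 79.4 and 67.0 CPM in MPTP. MPTP 1 was thus the lowest, and MPTP 2 lay inside the Ctrl range. Pitx3, a homeobox factor required for nigral dopamine neurons, was at 3.40, 2.495 and 2.04 CPM in Ctrl, 0.906, 1.60 and 0.900 in MPTP, and 2.22, 1.62 and 0.912 in MPTP plus diet. The MPTP libraries of Pitx3 lay below all Ctrl libraries, at a log2 fold change of -1.22 (unadjusted p = 0.00568, adjusted p = 0.885 by edgeR). Pitx3 was the only 1 of the 8 factors without overlap, where 5.41% of all genes tested lay wholly lower. Nr4a2, the nuclear receptor Nurr1, was at -0.35 (unadjusted p = 0.0134, adjusted p = 0.893 by edgeR). edgeR called 0 genes of any of these lists in any of the 3 comparisons.

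A list of 16 other dopamine neuron markers repeats Foxa2 from the transcription factors and Aldh1a1 from the breakdown genes. Of the 16, 14 were below Ctrl in MPTP, with a median of -0.27, and 4 were lower at an unadjusted p under 0.05, where 2.69% of all genes were. Chrna6, a nicotinic receptor subunit of dopamine neurons, was at 29.6, 30.1 and 22.4 CPM in Ctrl, 19.5, 19.3 and 17.5 in MPTP, and 21.7, 15.3 and 20.1 in MPTP plus diet. Both MPTP groups lay below Ctrl without overlap, as in 1.21% of all genes tested. Chrna6 was at -0.54 in MPTP (unadjusted p = 0.00190, adjusted p = 0.746 by edgeR). Chrnb3, which partners it, was at -0.54 (adjusted p = 0.893 by edgeR), Sncg at -0.29 and Sv2c at -0.26. The medians in MPTP plus diet against Ctrl were -0.31 for the 8 transcription factors, with all 8 below, and -0.11 for the 16 markers, with 14 below. Between MPTP plus diet and MPTP they were 0.05 and 0.05, with Sncg at 0.22 (unadjusted p = 0.0143, adjusted p = 0.625 by edgeR).

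**Figure D5:**
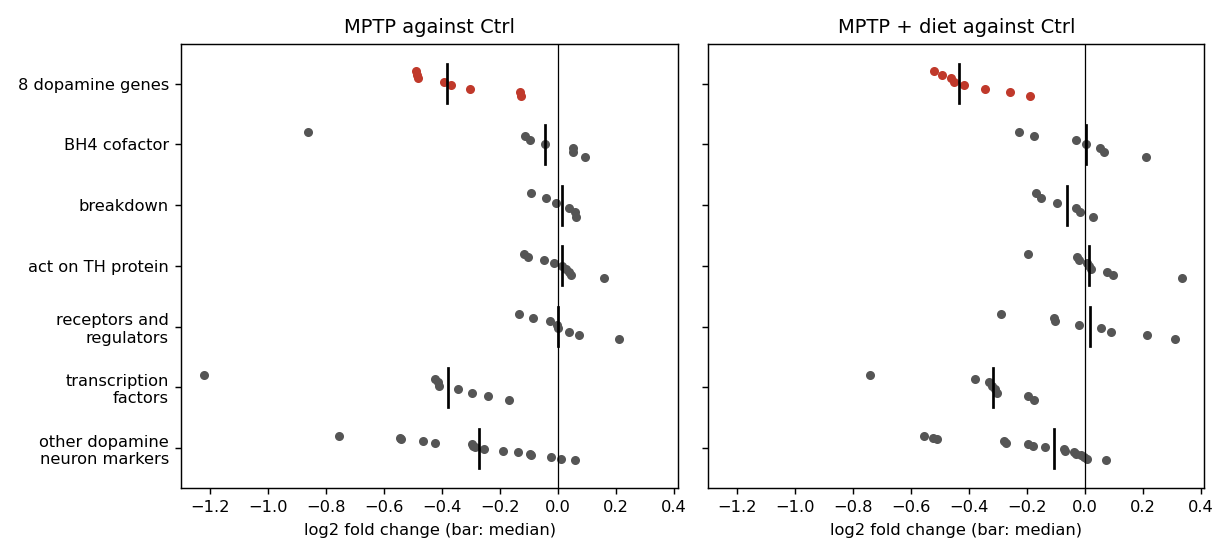
Log2 fold change of every tested gene (points) in 7 lists, with the median as a bar, for MPTP against Ctrl and MPTP plus diet against Ctrl on 1 scale. The 8 dopamine genes (red) and the 8 transcription factors lie wholly below 0 in both panels, while the cofactor, breakdown, tyrosine hydroxylase regulator and receptor lists straddle 0.

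The genes whose library profile lay closest to the mean profile of the 8 were found among 11809 annotated genes with a mean of at least 5 CPM, by the root mean square difference of centred log2 CPM over the 9 libraries. The nearest were Ccdc34 (0.0809), Oprk1 (0.0824), Dedd2 (0.0928), Nr4a2 (0.0930), Fdps (0.102), Ccdc28a (0.105), Tpbg (0.109), Shroom3 (0.114), Lrrtm4 (0.115) and Banp (0.116). The median over all genes compared was 0.238, and the mean profile itself had a root mean square of 0.214. The 8 genes differed from their own mean profile by 0.0769 for Slc10a4, 0.132 for Ddc, 0.162 for Drd2 and 0.179 for Dlk1. The difference was 0.186 for Th, 0.187 for Slc18a2, 0.231 for Slc6a3 and 0.290 for Gch1. Apart from Slc10a4, all were farther from it than the 10 genes named, so nearness to the mean is not nearness to each gene. Oprk1 encodes the kappa opioid receptor, and its log2 fold change was -0.28 in MPTP against Ctrl and -0.26 in MPTP plus diet against Ctrl (adjusted p = 0.904 and 0.742 by edgeR).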

How the data were processed

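RNA of 9 nigral libraries was sequenced. The authors deposited 1 table giving each gene's raw count and FPKM per library, per the file headers. The build was GRCm38 (mm10), per the submitters' processing notes, and the labels' protocols name the NEBNext Ultra kit. Not given in the sources used here: aligner, counting tool, annotation and strand. Lines naming no gene (10) were left out. Coordinates are from GENCODE M21.

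Counts of genes whose mean FPKM reached 0.5 were tested with edgeR 4.0.16 in R 4.3.3 (quasi-likelihood, robust, TMM, all 9 libraries in 1 model), with Benjamini-Hochberg adjustment over 14949 genes and a threshold of 0.05. The genes not tested held 0.189% to 0.244% of counts. The common biological coefficient of variation was 0.134. Alternatives used DESeq2 1.42.0 and limma 3.58.1. Marker scores are means of centred log2 CPM over the tested markers of a list.

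The 8 genes and all lists were chosen with earlier results of these data known. Of other lists, up to 4 genes of smallest unadjusted p were named, and the 10 genes nearest in profile.

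Replicate numbers are in the labels. Deviations of same-numbered MPTP and MPTP plus diet libraries correlated at 0.182, 0.107 and 0.113, all above the 0.1 set for pairing, a hint from the data only. In that comparison the fit with the replicate block changed no call.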

Additional observations from a re-analysis of the deposited data

How the results depend on the processing

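All 8 genes stayed below Ctrl in 175 of 176 values from 22 alternatives, both in MPTP and in MPTP plus diet. The exceptions were Gch1 in MPTP, at 0.050 without Ctrl 3 and MPTP 1, and in MPTP plus diet, at 0.054 with the pineal score (an alternative added after the data were seen). In MPTP plus diet against MPTP, 26 of 176 values changed sign, and the cause was not tested. Without Ctrl 3 and MPTP 1, Ddc was at -0.099, Gch1 at -0.12, Slc18a2 at -0.044 and Slc6a3 at 0.063. With the serotonin score, Gch1 was at -0.021 and Slc6a3 at 0.0018. With the meningeal score, Th was at 0.054 and Slc6a3 at 0.20. With the choroid score, Th was at 0.0012 and Gch1 at -0.031. Leaving out 1 library gave -0.22 to 0.14 for Th, -0.097 to 0.18 for Ddc, -0.12 to 0.22 for Gch1, -0.042 to 0.26 for Slc18a2, -0.20 to 0.040 for Slc10a4 and -0.28 to 0.11 for Slc6a3.

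Same-numbered libraries correlated at -0.00849, -0.151 and 0.0472 between Ctrl and MPTP, and at 0.0783, -0.00735 and 0.00791 between Ctrl and MPTP plus diet, so the numbers do not pair them. With the replicate block Slc6a3 in MPTP plus diet against Ctrl was at -0.54 with an adjusted p of 0.0360 by edgeR (0.0360 to 1.0 over its alternatives), and in MPTP against Ctrl its adjusted p was 0.0714.

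Genes called in MPTP against Ctrl were 2, against 14 with DESeq2, 0 with limma at either pseudocount, 0 without robust moderation, 3 with the replicate block, 1 without Ctrl 3 and MPTP 1, 1 with the serotonin and 1 with the meningeal score, 0 with the choroid and 0 with the pineal score, and 0 to 4 without 1 library. In MPTP plus diet against MPTP they were 0, against 19 with DESeq2, 1 without Ctrl 3 and MPTP 1, and 0 to 1 without 1 library. In MPTP plus diet against Ctrl they were 0, against 1 without the filter, 14 with DESeq2, 4 with only the 2 groups in the fit, 5 with the replicate block, 2 with the serotonin score, and 0 to 4 without 1 library.

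The smallest count behind a value of the 8 genes was 266, for Gch1 in MPTP 1.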

Other observations

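Within MPTP, the ratio of Th to Slc6a3 CPM was 0.437, 0.550 and 0.731 in libraries 1 to 3, a wider range than in Ctrl (0.528 to 0.596) or MPTP plus diet (0.544 to 0.607). The difference in range was not tested. The group means were 0.573 ± 0.148 in MPTP, 0.552 ± 0.0380 in Ctrl and 0.570 ± 0.0330 in MPTP plus diet (SD, n = 3 each).

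Of 8 genes of other amine systems, 4 could be tested. In MPTP plus diet against Ctrl, 2 of these were above and 2 below, with a median log2 fold change of -0.02. Histidine decarboxylase (Hdc), which makes histamine, had a log2 fold change of -0.36 in MPTP plus diet against Ctrl (adjusted p = 0.808 by edgeR). Slc29a4, a low-affinity monoamine transporter, was at -0.25 (adjusted p = 0.786 by edgeR). The 2 above were Slc6a4 at 0.34 and Tph2 at 0.21 (adjusted p = 0.963 and 0.974 by edgeR). Dbh, Pnmt, Slc6a2 and Slc18a1 were too low to test.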
